A study of Mus musculus with 6 samples.

Results

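The connexin and intercalated disc adhesion genes are 10 genes chosen by symbol: the connexin genes *Gja1*, *Gja4*, *Gja5* and *Gjc1*, the N-cadherin gene *Cdh2*, and the desmosome genes *Dsp*, *Pkp2*, *Dsg2*, *Dsc2* and *Jup*. All 10 were found among the 19079 genes of the deposited comparison. Their RNA was measured in heart ventricles, from 4 mice with *Runx1* overexpression (*Runx1* OE) and 2 mice with Myh6-CreER alone, all C57BL/6 by the labels (C57Bl/6J in the methods of the paper) and all collected at postnatal day 10 after tamoxifen on postnatal days 0 and 1. *Runx1* OE mice carried Myh6-CreER together with a *Rosa-Runx1* allele. Control mice carried Myh6-CreER without that allele, so the Cre and tamoxifen were common to both groups. Myh6 drives the Cre in cardiomyocytes, whereas the RNA came from ventricular tissue with all of its cell types. The extraction label names the left ventricle, while the tissue label names ventricles without a side. Values are the authors' group means in normalized counts, that is, counts divided by a size factor for each library, and they carry no SD of their own.

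The intercalated disc is the end-to-end contact of cardiomyocytes. Its gap junctions are built from connexins, which let current pass from cell to cell, its adherens junctions hold the actin filaments of neighboring cells together through N-cadherin, and its desmosomes do the same for desmin filaments. In the heart after birth these junctions gather at the cell ends, and connexin43 is the main connexin of working ventricular muscle.

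*Runx1* itself averaged 16622 normalized counts in *Runx1* OE ventricles and 40.2 in controls, as the genotypes name. The group means over all genes added up to 19.2 (*Runx1* OE) and 19.9 (controls), in units of 1e6 normalized counts. No column of values per library could be matched to a sample, so the comparison has no test and no p-value. For each gene, the deposited total, maximum and geometric mean over the 6 libraries were combined with the group means instead. They set outer limits to what any library of a group can hold, and they give a pooled SD within groups on the log2 scale with 4 degrees of freedom. For *Runx1* itself the limits of *Runx1* OE libraries are 5358 to 25320.5 normalized counts, with a pooled SD of 0.76. A fold of at least 1.5 between group means is used below as a size, not as a call of significance. The comparison covered 15181 genes whose mean over the 6 libraries reached 10 normalized counts, and their median SD was 0.19. *Xist*, transcribed from the inactive X chromosome of females, averaged 4584 normalized counts in *Runx1* OE and 8.92 in controls. Its geometric mean over the 6 libraries was 180, and unless the controls differed by more than 10-fold, at least 1 *Runx1* OE library held no more than 6.91 normalized counts. The total of *Xist* over the 6 libraries was 18353 normalized counts and the highest library held 7493, so most *Runx1* OE libraries were high. The *Xist* means thus differed between the groups without every *Runx1* OE library being high. By *Xist*, sex was not balanced between the groups, and its part in the values was not tested. In whole tissue, fewer cells of a type and less RNA per cell cannot be told apart either.

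*Gja1* was 1.78-fold and *Cdh2* 1.53-fold lower in *Runx1* OE ventricles, and the other 8 genes differed by less than 1.5-fold. None of the 10 was higher by that fold. Of all 15181 genes compared, 3.76% were lower and 5.18% were higher by at least 1.5-fold. The 10 genes had log2 ratios from -0.83 to 0.21 with a median of -0.06, against a median of 0.01 over all compared genes, and 6 of the 10 were below 0. For *Gja1* and *Cdh2*, no *Runx1* OE library can reach either control library, and for *Gja4* none can be as low as either control unless the means are off by more than 0.5%. Such a gap below the controls was found for 7.13% of the 15142 genes that gave limits, and a gap above them for 7.68%.

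**Figure D1:**
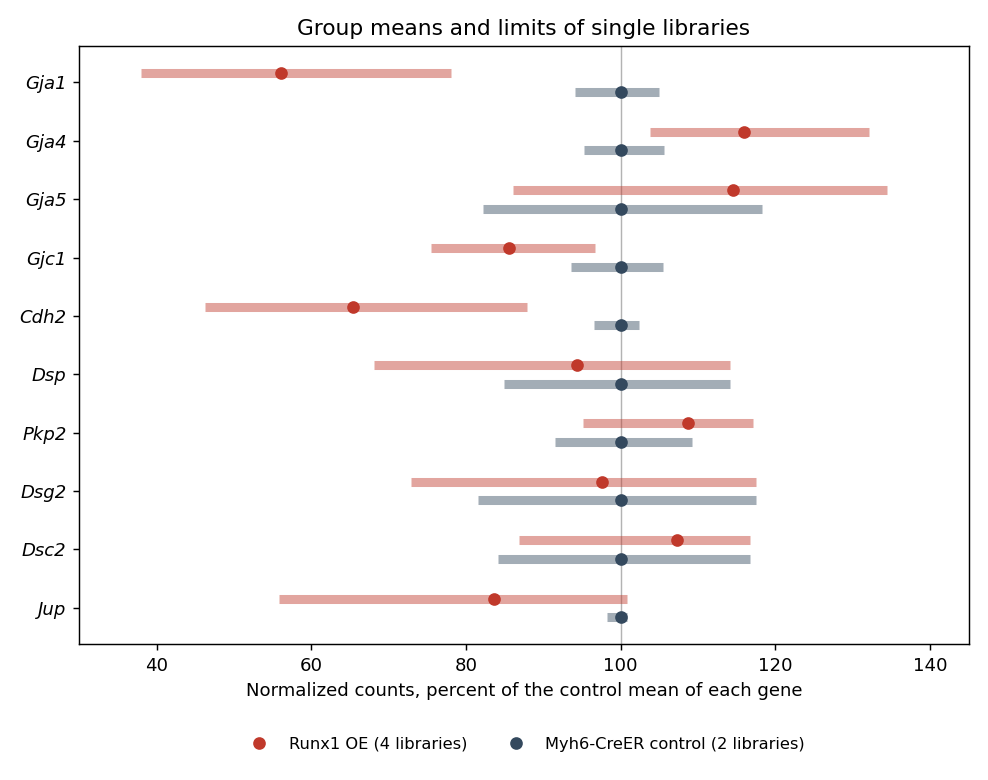
Normalized counts of each gene as a percent of its control mean (x axis), with points for the deposited group means of *Runx1* OE (red, above) and Myh6-CreER controls (dark, below) and bars for the outer limits within which single libraries of each group must lie. *Gja1* and *Cdh2* means lie at 56.1% and 65.4% of control with bars that do not meet those of the controls, while the bars of *Gja5*, *Dsp*, *Pkp2*, *Dsg2* and *Dsc2* largely cover those of the controls.

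*Gja1* encodes connexin43 and was the most abundant connexin in both groups. The deposited table places it at chr10:56253426-56278609 (GRCm39, plus strand). The authors' mean was 5447 normalized counts in *Runx1* OE and 9701 in controls, a log2 ratio of -0.83 with a pooled SD of 0.29. The 4 *Runx1* OE libraries must lie between 3680 and 7568 normalized counts. The higher control library was the maximum of all 6, at 10183 normalized counts, and the lower control must then lie between 9126 and 9311. Every *Runx1* OE library was thus below both controls, although the *Runx1* OE libraries can differ widely among themselves. With the deposited means taken as exact, leaving out any 1 library allows log2 ratios only between -1.03 and -0.68. By log2 ratio, *Gja1* ranked 277 from the bottom among the 15181 compared genes. Its exons overlap *Gm68148* on the opposite strand, and no source used here gives the strand setting of the counting. Exons of *Gja4*, *Gja5*, *Dsp* and *Dsg2* likewise overlap an opposite-strand gene (*Gm69784*, *Gpr89*, *Gm10129* and *Gm16090* in that order).

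The other 3 connexins of the group differed less. *Gja4* (chr4:127205214-127207832, minus strand), which encodes connexin37 of arterial endothelium, averaged 461 normalized counts in *Runx1* OE and 398 in controls, a log2 ratio of 0.21 (pooled SD 0.12). Its *Runx1* OE libraries lie between 413 and 526 normalized counts and its controls between 379 and 420. Taken jointly these limits keep the groups apart when each mean may be off by 0.5%, but not when it may be off by 1%. Its separation from the controls thus depends on that tolerance. *Gja5* (chr3:96812009-96984732, plus strand), which encodes connexin40 of atria, conduction fibers and arterial endothelium, averaged 407 normalized counts in *Runx1* OE and 356 in controls. Its log2 ratio was 0.19, smaller than its SD of 0.23. The limits of 306 to 478 in *Runx1* OE and 293 to 421 in controls overlap. *Gjc1* (chr11:102690405-102710526, minus strand), the connexin45 gene, which is expressed early in heart development and later in nodal and conduction cells, averaged 635 normalized counts in *Runx1* OE and 742 in controls. Its log2 ratio of -0.22 is 1.99 times its pooled SD of 0.11. The limits are 560 to 717 for *Runx1* OE and 694 to 782 for controls, so an overlap is possible.

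Per length, *Gja1* remained the leading connexin. Divided by the length of the canonical transcript, its level was 1159 normalized counts per kb in *Runx1* OE and 2064 in controls. *Gja4* followed, with 271 per kb in *Runx1* OE and 234 in controls. In *Runx1* OE the next were *Gja3*, *Gja5* and *Gjc1*, with 138, 130 and 113 per kb, and in controls these 3 had 233, 114 and 132 per kb. Levels of *Gja3*, *Gja5* and *Gjc1* in *Runx1* OE are closer to each other than the limits of their libraries, so their order there is not established, and the same holds in controls for *Gja4* against *Gja3* and for *Gjc1* against *Gja5*. Over the 9 connexin genes in the table, the summed level was 1842 per kb in *Runx1* OE and 2799 in controls, a log2 ratio of -0.60. *Gja1* made up 62.9% of that sum in *Runx1* OE and 73.7% in controls. *Gja4* made up 14.7% in *Runx1* OE and 8.34% in controls.

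**Figure D2:**
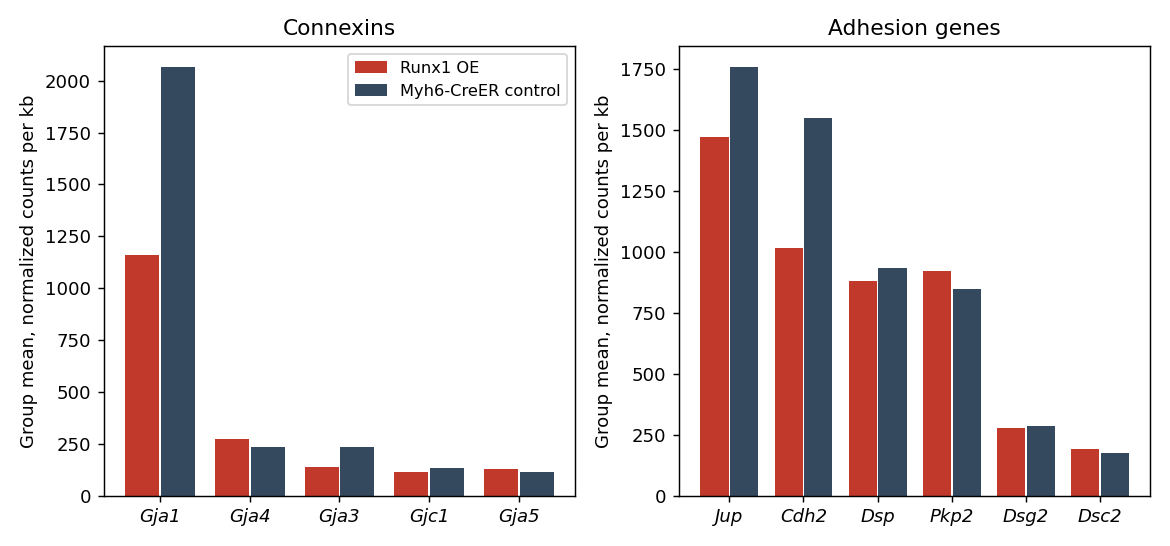
Deposited group means divided by the length of the canonical transcript (y axis, normalized counts per kb) for the 5 most abundant connexin genes (left panel) and the 6 adhesion genes (right panel), with *Runx1* OE bars in red left of the control bars. *Gja1* has 1159 per kb in *Runx1* OE and 2064 in controls, and *Cdh2* has 1013 and 1549; no error bars are drawn because the means carry none.

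The sequence ahead of each gene was searched in GRCm39 for the RUNX core motif, TGTGGT or TGCGGT on either strand, since RUNX1 is the overexpressed factor. Such a match occurs in the 1000 bases before 57% of 13033 protein-coding genes, and in the nearest 250 bases before 17.8%. Of the 10 genes, 4 had a match within 1000 bases, namely *Gja4*, *Gjc1*, *Dsc2* and *Jup*, and 1 within 250 bases, *Gjc1*. The match nearest the start of each gene is shown with its neighboring bases along the gene's strand, for the genes whose sequence can be given, with the match in capitals (ACCACA is TGTGGT on the other strand).
*Gjc1* (chr11:102710336-102710365): acggtggagctcTGCGGTccgaccctggaa
*Gja4* (chr4:127208555-127208584): tctcaacccctaACCACAccccgtgatgcc
*Jup* (chr11:100289533-100289562): cacaactgaggcACCACAcaagcccattaa
The matches begin 139, 721 and 889 bases upstream of the canonical starts. A match is a run of letters and does not show that a factor binds there.

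*Cdh2* encodes N-cadherin, the classical cadherin of the cardiomyocyte adherens junction. The deposited table places it at chr18:16721934-16942303 (minus strand). The authors' mean was 4986 normalized counts in *Runx1* OE and 7624 in controls, a log2 ratio of -0.61 with a pooled SD of 0.26. The 4 *Runx1* OE libraries must lie between 3528 and 6704 normalized counts. The higher control was again the maximum, at 7809 normalized counts, with the lower control between 7367 and 7511. The control pair is close together and all *Runx1* OE libraries are below it. With the means taken as exact, leaving out 1 library allows log2 ratios from -0.79 to -0.48, and the upper end is under the 1.5-fold size. When both groups are scaled to the same total, *Cdh2* has -0.56, which is also under that size.

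*Jup* (chr11:100259784-100288589, minus strand) encodes plakoglobin, which is shared by adherens junctions and desmosomes. Its mean was 4848 normalized counts in *Runx1* OE and 5797 in controls, a log2 ratio of -0.26 that is smaller than its pooled SD of 0.30. The controls are confined to 5696 to 5844 normalized counts, whereas *Runx1* OE libraries can lie anywhere from 3234 to 5844. The spread of *Jup* therefore lies mainly within *Runx1* OE.

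The other 4 desmosome genes were close to equal between the groups. *Dsp* (chr13:38335270-38382553, plus strand), which encodes desmoplakin, the link from the desmosome to desmin, was the most abundant of the 10 genes by normalized counts. It averaged 8491 in *Runx1* OE and 8992 in controls, a log2 ratio of -0.08 (pooled SD 0.27). Its libraries can lie between 6129 and 10262 normalized counts in *Runx1* OE and between 7636 and 10262 in controls, and the highest library can be in either group. *Pkp2* (chr16:16031182-16090576, plus strand) encodes plakophilin-2, the armadillo protein of the cardiac desmosomal plaque. It averaged 2725 normalized counts in *Runx1* OE and 2506 in controls, a log2 ratio of 0.12 with a pooled SD of 0.11, the smallest SD of the 10 genes. The limits are 2385 to 2936 in *Runx1* OE and 2294 to 2737 in controls. The desmosomal cadherin genes *Dsg2* (chr18:20691131-20737578, plus strand) and *Dsc2* (chr18:20163690-20192611, minus strand) encode desmoglein-2 and desmocollin-2. *Dsg2* averaged 1623 normalized counts in *Runx1* OE and 1662 in controls, a log2 ratio of -0.03 (pooled SD 0.24). *Dsc2* averaged 893 normalized counts in *Runx1* OE and 832 in controls, a log2 ratio of 0.10 (pooled SD 0.16). For both, the limits of the 2 groups overlap over most of their range.

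With SDs of this size a small difference on the log2 scale would not stand out for *Dsp*, *Dsg2* or *Jup*, whose ratios have standard errors of 0.23, 0.21 and 0.26. With the means taken as exact, leaving out 1 library could move *Dsp* to between -0.29 and 0.14, and *Dsg2* to between -0.28 and 0.24. Near equality of their means does not show that these genes were the same in both groups.

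Per length, the order of the adhesion genes was *Jup*, *Cdh2*, *Pkp2*, *Dsp*, *Dsg2* and *Dsc2* in *Runx1* OE, with 1468, 1013, 923, 882, 279 and 190 normalized counts per kb. In controls *Jup* and *Cdh2* also led, with 1756 and 1549 per kb, followed by *Dsp* with 934, *Pkp2* with 849, *Dsg2* with 285 and *Dsc2* with 177 per kb. The order of *Pkp2* and *Dsp* differed between the groups, and their limits overlap in both groups. In *Runx1* OE the limits per kb of *Jup*, *Cdh2*, *Pkp2* and *Dsp* all overlap each other, so the order of these genes there is not established. Summed over the 5 desmosome genes, the level was 3741 per kb in *Runx1* OE and 4000 in controls, a log2 ratio of -0.10. Of the summed level of the 3 cadherin genes, *Cdh2* made up 68.4% in *Runx1* OE and 77.0% in controls.

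Other genes of these junctions were counted by lists written with earlier results of these data known. Of 16 other connexin genes, 5 were in the table and 3 reached the mean of 10 normalized counts. *Gja3*, which encodes connexin46, best known from the lens, had 381 normalized counts in *Runx1* OE and 644 in controls, a log2 ratio of -0.76 with a pooled SD of 0.37. Its *Runx1* OE libraries are confined to 231 to 565 normalized counts and its controls to 597 to 684, so they do not overlap. *Gjd3* was higher by 1.5-fold but low, with 16.2 normalized counts in *Runx1* OE and 10.2 in controls, and its limits overlap. The pannexin genes *Panx1* and *Panx2* had log2 ratios of 0.12 and -0.34.

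None of the 11 compared genes of the adherens junction and area composita differed by 1.5-fold. Their log2 ratios ran from -0.27 for the vinculin gene *Vcl* to 0.09 for *Nectin2*, with a median of -0.14, and 8 were below 0. Among the catenins, which tie N-cadherin to actin, *Ctnnb1* had -0.02, *Ctnna1* -0.03, *Ctnnd1* 0.02 and *Ctnna3*, the alpha-T-catenin gene, -0.24.

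Of 5 other desmosome genes, *Perp* was lower and *Dsg1c* higher by at least 1.5-fold. *Perp*, a membrane protein of desmosomes and a p53 target, had 2707 normalized counts in *Runx1* OE and 4858 in controls, a log2 ratio of -0.84 with a pooled SD of 0.13. Its libraries do not overlap, with *Runx1* OE at 2261 to 3213 normalized counts and controls at 4547 to 5123. *Dsg1c*, a desmoglein known from epithelia, was low, with 19.3 normalized counts in *Runx1* OE and 2.04 in controls. The desmin gene *Des* had a log2 ratio of -0.36.

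Of 24 partners of connexins and of the disc, 1 was higher and 2 were lower by at least 1.5-fold, with a median log2 ratio of -0.10. *Ank3*, the ankyrin-G gene, was the higher one, with 1281 normalized counts in *Runx1* OE and 782 in controls. *Fhl2* and the Z-disc gene *Ldb3* were the lower pair, at log2 ratios of -1.12 and -0.61. All *Runx1* OE libraries lay below the controls for *Fhl2*, *Ldb3* and *Nrap* (-0.45), and above them for *Ank3* and *Csk* (0.30). Over all genes that gave limits, such gaps were found for 7.13% below and 7.68% above. *Tjp1*, the scaffold that binds connexin43, had a log2 ratio of -0.26 (pooled SD 0.15).

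**Figure D3:**
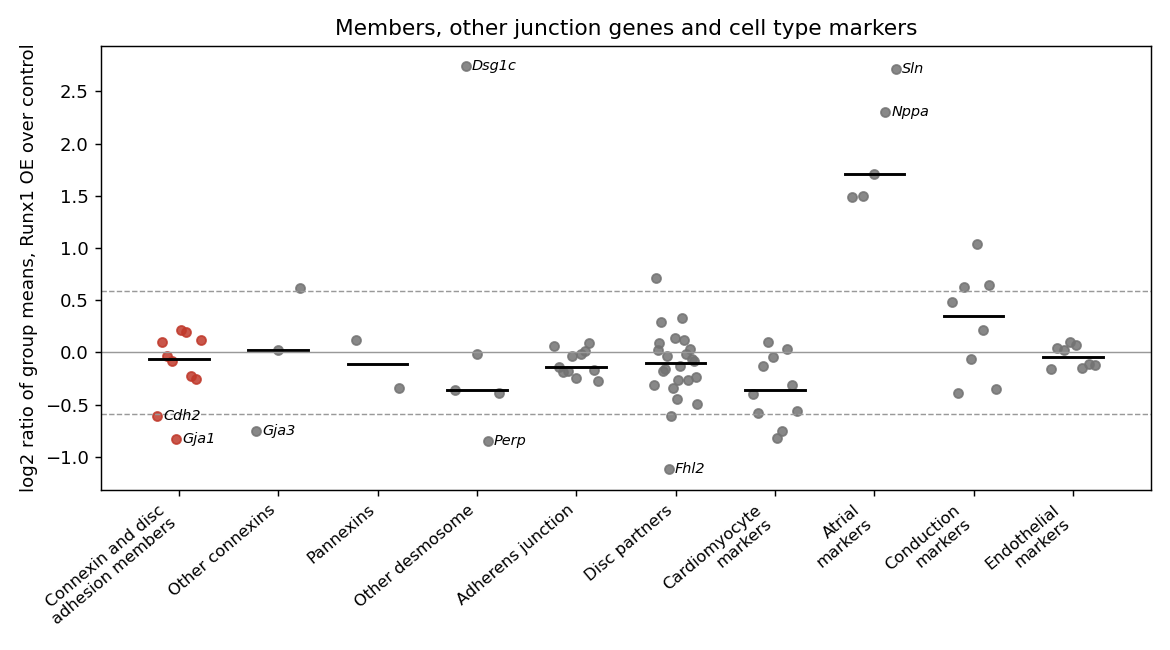
Log2 ratios of the group means, *Runx1* OE over Myh6-CreER control (y axis), for each gene whose mean reached 10 normalized counts, in 10 lists; horizontal bars mark list medians and dashed lines the 1.5-fold size. *Gja1* and *Cdh2* lie below the lower dashed line while the other 8 members lie between the lines, and all 5 atrial markers lie above the upper one.

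Cell type markers were compared in the same tables, since connexins differ between cell types. Of 10 cardiomyocyte markers, 8 lay below a log2 ratio of 0, and the median was -0.35. *Pln* was at -0.82 (pooled SD 0.14), *Ryr2* at -0.75 (0.46) and *Myh6*, whose promoter drives the Cre, at -0.58 (0.56). The limits of *Ryr2* and *Myh6* overlap between the groups, while the libraries of *Pln* and of *Tnnt2* (-0.31) do not. *Myl2*, *Myl3* and *Tnni3* lay between -0.05 and 0.10. The summed normalized counts of the 10 cardiomyocyte markers had a log2 ratio of -0.37. *Gja1* and *Cdh2* are both expressed in cardiomyocytes, and the part of the marker genes in their values was not tested. By the paper's methods, atria and outflow tract were removed before the RNA was extracted. All 5 atrial markers (*Nppa*, *Myl4*, *Myl7*, *Bmp10* and *Sln*) were higher by at least 1.5-fold, with a median of 1.71, and no group mean was at 0. They summed to 1781 normalized counts in *Runx1* OE and 405 in controls. *Nppa* made up most of these sums, with 1420 in *Runx1* OE and 288 in controls, and its libraries do not overlap. The limits of *Myl4*, *Myl7* and *Bmp10* overlap between the groups, with pooled SDs from 0.94 to 1.71, and *Sln* gave no limits. Which cells gave the RNA of the atrial markers was not tested. *Gja5*, expressed in atria among other places, had a log2 ratio of 0.19, and its relation to the atrial markers was not tested. Of 8 markers of conduction cells, 5 lay above a log2 ratio of 0 and 3 below, with a median of 0.35. *Hcn4*, *Scn10a* and *Cpne5* were higher by at least 1.5-fold, but only the libraries of *Hcn4* do not overlap. The Purkinje marker *Cntn2* had a log2 ratio of -0.39 (pooled SD 0.49), and its limits overlap. The 8 endothelial markers ran from -0.16 to 0.10 with a median of -0.04, and the 8 arterial markers ran from -0.32 to 0.59 with a median of 0.09, beside 0.21 for *Gja4*. *Bmx*, at the upper end, had 63.7 normalized counts in *Runx1* OE and 41.9 in controls, and its libraries do not overlap. No marker of smooth muscle cells, fibroblasts, epicardial cells, leukocytes or red blood cells differed by 1.5-fold, and their medians lay between -0.29 and 0.16. Among them, all *Runx1* OE libraries of *Acta2* (-0.46) and *Csf1r* (-0.32) lay below the controls. For none did all lie above, and the limits of *Tagln* (0.57) overlap. Whether these lists moved with the connexins in single mice was not tested.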

How the data were processed

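Ventricular RNA of 4 *Runx1* OE mice and 2 controls (groups from the genotype label) was sequenced by the authors from oligo(dT) libraries. By the paper's methods, reads were mapped with STAR to mm39, quantified to Ensembl transcripts with Partek E/M and normalized by median ratio. HISAT2 and mm9 stand instead in the submitters' processing notes. The deposited mean of each group is a normalized signal (counts per size factor) made by the authors from the libraries of each group. The authors' own p-values, fold changes and limits in the same table, and its sheet of genes passing their threshold, were not used. The 6 columns of values per library were not used, because their names match no label, and naming groups from *Runx1* values was avoided. The planned limma fit was therefore not run and there is no test.

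Log2 ratios are of (mean + 1), *Runx1* OE over control. A gene was compared when its mean reached 10 normalized counts. For limits of single libraries, each group mean could be off by 0.5% while the total was exact. For genes with a mean of at least 50, means and totals differed by at most 0.304%. The pooled SD comes from the gap between group means and geometric mean. These limits and this SD were added after seeing the data. They were tested on simulated data with SDs of 0.1, 0.2 and 0.3, for genes with a mean of at least 50. Larger SDs and lower means were not simulated, so the limits and SDs of genes such as *Runx1*, *Myh6* and *Gjd3* were not checked in this way. Positions and exon overlaps are from GENCODE M39 on GRCm39, which held 18992 of the 19079 identifiers, all overlapping their gene. Spans of the 10 genes are the deposited ones. Python 3.11.15, numpy 2.4.6 and pandas 2.3.3 were used. The 10 genes and all lists were chosen with earlier results of these data known. All 10 are named, as are list genes past 1.5-fold where 5 or fewer, and some others chosen after their values were seen. Some genes of the lists and some sequences are not reported here. Depth per library is not used here, and the number of mice limits precision.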

Additional observations from a re-analysis of the deposited data

How the results depend on the processing

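Over other pseudocounts, filters and scalings, the log2 ratios of the 10 genes moved by at most 0.0496, less than the SD of each gene in all 60 cases. The filters cannot change a gene's ratio, and each scaling shifts all genes by nearly the same amount. These cases therefore say little about how stable single ratios are. Scaled to the same total, 1 of the 10 was lower by 1.5-fold (*Gja1*) and not 2, and *Dsg2* was at 0.02 and not -0.03. At a fold of 2 it was 0. Counts over the lists of other junction genes and partners, without cell type markers, were 4 lower and 3 higher by 1.5-fold. They were 10 lower at the smaller fold tried, 1 lower and 1 higher at a fold of 2, and 1 higher at a mean of at least 50. Over all genes, 571 lower and 786 higher became 1584 and 2063 at the smaller fold, 168 and 247 at a fold of 2, 362 and 363 at a mean of at least 50, 1174 and 1734 with no filter, 502 and 946 with the groups scaled to the same total, and 440 and 505 with a pseudocount of 10. The counts follow from the thresholds and the genes compared. With a tolerance of 1%, chosen after seeing the data, *Gja1* and *Cdh2* stayed apart from controls and *Gja4* did not, leaving 2 below and 0 above. Leaving out each named sample was not run, and limits for leaving out any 1 library, also added later, allow a change of sign for *Gja5* (-0.04 to 0.49), *Dsc2* (-0.11 to 0.37), *Dsp* and *Dsg2*. For *Pkp2* they run from 0.00323 to 0.26 when the deposited means are taken as exact. A control of *Pkp2* can reach 2737 normalized counts within the tolerance, above its *Runx1* OE mean of 2725, so a change of sign is possible there too. No paired analysis was possible because no values per numbered sample could be used. An exact permutation test was not run for the same reason.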
